A study of Mus musculus with 30 samples.

Results

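Trp53 and 6 genes that are read as its output or its brake were followed in mouse retinal ganglion cells (RGCs), which send the axons of the optic nerve to the brain, after that nerve had been crushed. The genes are Trp53 itself, Mdm2, Cdkn1a, Ccng1, Gadd45a, Gadd45b and Gadd45g. They were chosen by name, as textbook members of the p53 damage response, but with earlier results of these data known. They are 7 of the 13752 genes in the RNA count table. All 7 were expressed at a level that allowed a test. Of 151630 peaks of open chromatin, 34 carry the gene ID of a member, and 4 of 1312 scored binding motifs are p53 motifs.

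RNA-seq was done on sorted RGCs without crush (day 0, 3 libraries) and at day 1 (3 libraries), day 2 (2 libraries), day 3 (3 libraries) and day 4 (2 libraries) after crush. ATAC-seq, which counts transposase cuts in open chromatin, was done at day 0 (6 libraries), day 1 (3 libraries) and day 3 (6 libraries). All libraries are labelled C57BL/6 except 2 of the 3 day 0 RNA libraries, which are labelled C57BL/7 and C57BL/8, so that only the day 0 group carries those names. The labels name no transgene, sham surgery or other agent, whereas headers of the authors' tables carry nonTarget or NT in the names of these groups, which the labels do not explain. Neither the age of the mice nor the sort gate is given, and the uncrushed libraries are the only controls. Nothing in the labels ties each replicate to an animal of its own, and p-values therefore measure the spread between these libraries, which may be technical. In bulk RNA, fewer cells of a type and less RNA per cell cannot be told apart.

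The p53 protein is a transcription factor that is held at low levels by MDM2, a ubiquitin ligase that marks p53 for destruction and is itself encoded by a p53 target gene. Damage and stress signals release p53, which then binds its response element near target genes that halt the cell cycle, repair DNA or start cell death. Most of these target genes have other activators as well: Gadd45a and Sesn2, for example, are also induced by ATF4 in the integrated stress response. Neurons such as RGCs do not divide, and p53 is best known in them for its part in cell death after injury.

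The RNA libraries held 19024286 to 27561352 counts and the ATAC libraries 20006724 to 72579102 counts in peaks. All 12 RGC markers examined were detected in the table, with a summed level of 10959 to 12280 CPM, the TMM-normalised count scaled to library size, at day 0 and 7314 to 7705 CPM at day 4. Summed microglial markers (11 of 11 in the table, none at 0 throughout) ranged from 75.3 CPM in a day 3 library to 558 CPM in a day 1 library, and summed rod and cone markers (11 of 11) from 240 to 1083 CPM. The share of ATAC reads in peaks was 0.322 to 0.496 at day 0, 0.157 to 0.186 at day 1 and 0.173 to 0.456 at day 3. All day 1 ATAC libraries belong to one of the 2 batches in the deposited covariate table, and the other batch holds no day 1 library.

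One label matters for every date below. In the authors' deposited table of RNA comparisons, the column headed day 3 follows the libraries labelled day 2: over 13737 genes its log2 fold changes correlated at r = 1.000 with the contrast of those libraries, with a median absolute difference of 0.065, and at r = 0.648 with that of the libraries labelled day 3, with a median absolute difference of 0.309. Its day 1 column matched the libraries labelled day 1 (r = 1.000). For Cdkn1a the authors' deposited table gives 3.92 under day 3, beside 3.99 for day 2 and 5.24 for day 3 from the counts. Titles, treatment labels and the covariate table name these libraries day 2, and days here follow them; which label is in error was not tested.

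Cdkn1a and Gadd45a rose from day 1 and reached the largest changes, and Mdm2 also rose from day 1, in small steps. Gadd45g and Trp53 followed from day 2, and Ccng1 rose from day 3. Gadd45b took a course of its own with a peak at day 1, where its log2 change (1.60) exceeded that of Gadd45a (1.33). With edgeR's quasi-likelihood test and Benjamini-Hochberg adjustment over 13737 genes (called at an adjusted p under 0.05), 4 of the 7 genes were higher than day 0 at day 1, where 5.93% of all genes were called higher and 5.45% lower. At day 2, 5 of 7 were higher (14.8% of all genes higher, 14.5% lower), at day 3, 6 of 7 (20.4% higher, 20.1% lower), and at day 4, 7 of 7 (19.8% higher, 19.0% lower). No member was called lower on any day. Leaving out 1 library at a time gave 2 to 5 genes called at day 1, 3 to 4 at day 2, 6 at day 3 and 6 to 7 at day 4. The median log2 change of the 7 genes was 0.57, 0.82, 1.28 and 1.34 at days 1 to 4, against 0.01, 0.04, 0.03 and 0.06 over all genes tested. These 4 comparisons share the day 0 libraries. Because the members were chosen with earlier results of these data known, their counts and medians beside those of all genes are a description and no test. Between successive days, 3 of 7 rose from day 1 to 2 (6.22% of all genes), 4 of 7 from day 2 to 3 (7.43%) and 0 of 7 from day 3 to 4 (0.881%). In that last step edgeR called 239 genes in all, with 2069 at an unadjusted p under 0.05, and DESeq2 called 623.

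**Figure D1:**
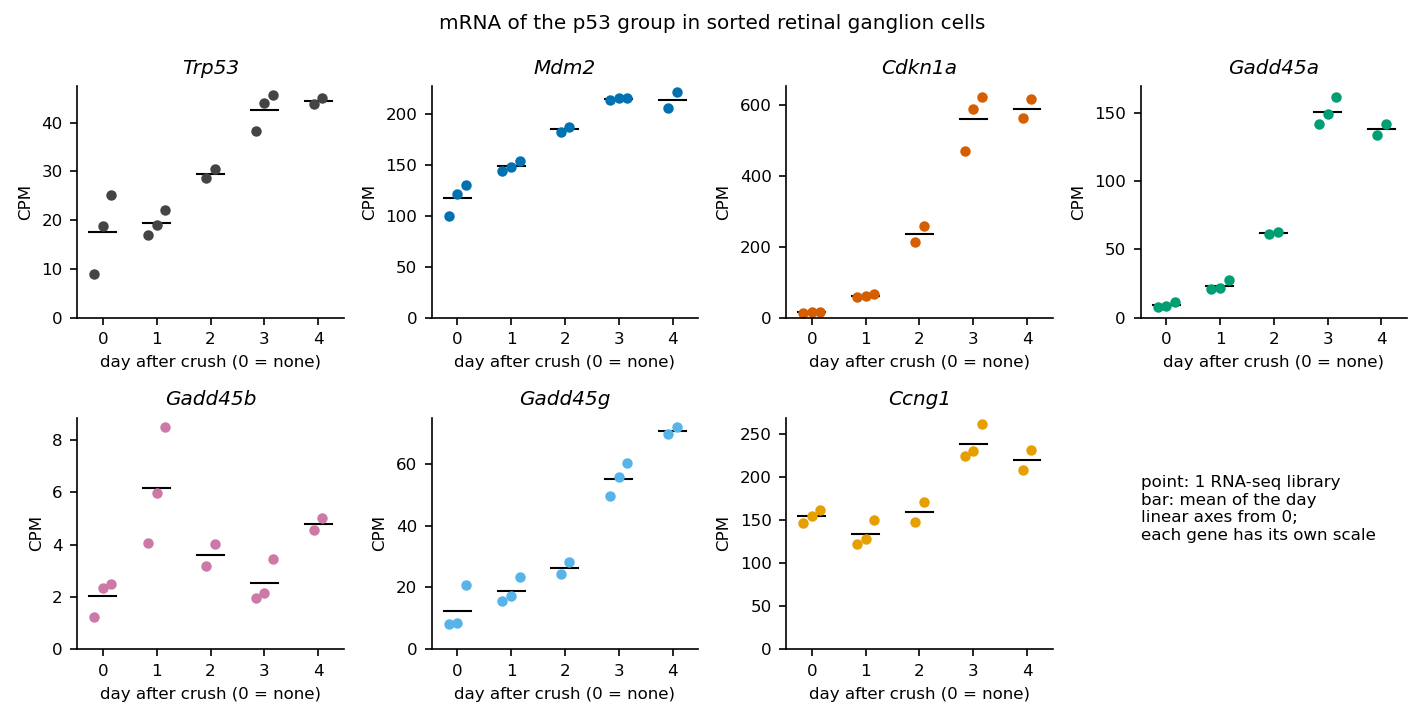
Level of each of the 7 genes in every RNA library, in CPM on a linear axis from 0 with its own range per panel, against the day after crush (0 is no crush); points are libraries and bars the day means. Cdkn1a and Gadd45a climb through day 3 and stay there at day 4, while Gadd45b is highest at day 1 and overlaps day 0 at day 3.

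Trp53 (ENSMUSG00000059552, chr11:69580359-69591873 on mm10, plus strand), the gene of p53 itself, rose late and modestly. The day 0 libraries held 25.2, 8.98 and 18.8 CPM, the day 1 libraries 19.1, 16.9 and 22.1 CPM and the day 2 libraries 28.6 and 30.4 CPM. At day 3 they held 44.1, 45.7 and 38.3 CPM and at day 4 43.9 and 45.1 CPM. The day 0 replicates spread widely and replicate 2 was low, so that day 1 overlapped day 0, whereas every library of days 2, 3 and 4 lay above all of day 0. The log2 change was 0.14 ± 0.246 (SE) at day 1 (edgeR adjusted p = 0.783), 0.75 ± 0.27 at day 2 (adjusted p = 0.0478), 1.28 ± 0.246 at day 3 (adjusted p = 4.75e-04) and 1.34 ± 0.268 at day 4 (adjusted p = 6.96e-04), the last a 2.53-fold rise. The day 2 call was lost without day 0 replicate 2 (log2 change 0.40, adjusted p = 0.103), day 0 replicate 3 (0.0577), day 2 replicate 1 (0.126) or day 2 replicate 2 (0.191), and under 4 other settings (adjusted p 0.0532 to 0.166).

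Mdm2 (ENSMUSG00000020184, chr10:117688875-117710758, minus strand), the ubiquitin ligase that limits p53, rose in small steps with tight replicates. Its level was 100, 121 and 130 CPM at day 0, 144, 148 and 154 CPM at day 1 and 182 and 187 CPM at day 2. It then held at 215, 215 and 213 CPM at day 3 and 205 and 221 CPM at day 4. No library after crush overlapped day 0, and day 1, day 2 and the later days formed 3 separate bands. The log2 change from day 0 was 0.34 ± 0.089 (SE), 0.66 ± 0.099, 0.87 ± 0.09 and 0.86 ± 0.098 at days 1 to 4 (edgeR adjusted p = 0.0205, 8.61e-05, 5.85e-07 and 2.1e-06), or 1.82-fold by day 4. The day 1 call was lost without day 0 replicate 1 (log2 change 0.21, adjusted p = 0.112), day 0 replicate 2 (0.0584), day 1 replicate 1 (0.0683) or day 1 replicate 3 (0.0646), and with only days 0 and 1 in the fit (0.0835). The step from day 1 to 2 (0.31, adjusted p = 0.0467) was lost without any 1 of the 5 libraries of those days (adjusted p 0.0647 to 0.26), with DESeq2 size factors (0.0578), with a filter at a mean count of 20 (0.0543) and with sequencing components in the fit (0.322).

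Cdkn1a (ENSMUSG00000023067, chr17:29090976-29100727, plus strand) encodes p21, an inhibitor of cyclin-dependent kinases and the classical p53 target. The RefSeq table of GRCm38.p6 gives start sites for all 7 genes, and for Cdkn1a it gives a pair of them, at which windows of 300 bases (250 before the start and 50 after) were searched on both strands. The window at the upstream start holds a pair of adjacent p53 half-sites, the p53 response element, with 1 mismatch in 20 bases to the consensus. Its 250 upstream bases (chr17:29090729-29090978, plus strand) are shown with that element (chr17:29090928-29090947) in capitals, because they place it inside a peak of open chromatin described further on.
Cdkn1a upstream start: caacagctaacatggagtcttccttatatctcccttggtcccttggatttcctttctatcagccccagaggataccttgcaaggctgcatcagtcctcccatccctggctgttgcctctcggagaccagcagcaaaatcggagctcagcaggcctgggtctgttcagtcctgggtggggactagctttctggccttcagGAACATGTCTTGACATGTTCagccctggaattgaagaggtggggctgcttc
A pair of this kind with at most 1 mismatch occurs in 29 of 32851 such windows (0.0883%). The element is a match of letters and not a measured binding site.

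Cdkn1a transcripts were at 14.4, 13.1 and 17 CPM at day 0 and at 60.1, 65.3 and 59.3 CPM at day 1. They reached 214 and 258 CPM at day 2, 470, 622 and 589 CPM at day 3, and 615 and 562 CPM at day 4. Days 0, 1, 2 and 3 did not overlap, and both day 4 libraries lay within the day 3 range. The log2 change from day 0 was 2.05 ± 0.121 (SE) at day 1 (edgeR adjusted p = 1.01e-08) and 5.31 ± 0.139 at day 4 (adjusted p = 5.93e-14). The steps were 1.94 from day 1 to 2 (adjusted p = 1.02e-07) and 1.25 from day 2 to 3 (adjusted p = 1.02e-05), with no call from day 3 to 4.

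Ccng1 (ENSMUSG00000020326, chr11:40748552-40755311, minus strand) encodes cyclin G1, a p53 target that brings a phosphatase to MDM2. Of the start-site windows of the 7 genes, only its own and the upstream Cdkn1a window hold the p53 element with 1 mismatch. At most 2 mismatches occur in 0.798% of all windows, and the other 6 windows have 3 to 5. Stretches outside the windows, such as the introns of Mdm2, were not searched, so an element there would be missed. The Ccng1 sequence (chr11:40755287-40755536, minus strand) is shown for comparison with Cdkn1a, with the element (chr11:40755462-40755481) in capitals.
Ccng1: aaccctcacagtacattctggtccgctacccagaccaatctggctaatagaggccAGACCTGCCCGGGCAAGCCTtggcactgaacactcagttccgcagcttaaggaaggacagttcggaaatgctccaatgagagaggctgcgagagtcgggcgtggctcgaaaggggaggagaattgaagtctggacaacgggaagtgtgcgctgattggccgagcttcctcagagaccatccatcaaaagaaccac
Both genes thus carry the element near a start site, yet their transcripts took different courses. Ccng1 stood at 161, 147 and 155 CPM at day 0, 150, 128 and 122 CPM at day 1 and 148 and 171 CPM at day 2. It stood at 262, 230 and 224 CPM at day 3 and 231 and 208 CPM at day 4. Days 1 and 2 overlapped day 0, and every library of days 3 and 4 lay above it. The log2 change was -0.21 ± 0.097 (SE) at day 1 (edgeR adjusted p = 0.186), 0.05 ± 0.108 at day 2 (adjusted p = 0.762), 0.63 ± 0.097 at day 3 (adjusted p = 5.23e-05) and 0.51 ± 0.107 at day 4 (adjusted p = 9.97e-04). The step from day 2 to 3 was 0.58 (adjusted p = 0.00166, and 0.0509 without day 2 replicate 1).

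Gadd45a (ENSMUSG00000036390, chr6:67035096-67037457, minus strand) encodes a small stress protein that binds the kinase MAP3K4 and partners of the cell cycle and DNA repair machinery. Its start-site window has no p53 element with fewer than 3 mismatches; the element of this gene best known from other work lies in an intron, and that stretch was not analysed here. The window holds the octamer ATTTGCAT, a site of some POU factors, on both strands, and 35 of 32851 windows (0.107%) hold 2 or more of them. The sequence (chr6:67037408-67037657, minus strand) is shown with both octamers in capitals, because so few windows hold 2 of them. No CRE (TGACGTCA) or AP-1 site (TGANTCA) was found beside them.
Gadd45a: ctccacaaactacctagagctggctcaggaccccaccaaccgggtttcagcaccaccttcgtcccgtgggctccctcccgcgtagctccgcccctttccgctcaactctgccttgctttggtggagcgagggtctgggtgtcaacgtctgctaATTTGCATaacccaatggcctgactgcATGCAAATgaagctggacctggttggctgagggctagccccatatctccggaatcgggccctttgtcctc
The absence of a match says only that these letters are not in this window. CRE letters occur in 1.79% and AP-1 letters in 7.81% of all windows, and no window of the 7 genes holds either.

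Gadd45a transcripts were at 8.77, 7.81 and 11.3 CPM at day 0 and 20.7, 27.5 and 22 CPM at day 1. They were at 61 and 62.5 CPM at day 2, 162, 149 and 142 CPM at day 3 and 134 and 142 CPM at day 4. Days 0 to 3 did not overlap, and day 4 overlapped the low end of day 3. The log2 change from day 0 was 1.33 ± 0.137 (SE) at day 1 (edgeR adjusted p = 9.13e-06), 2.73 ± 0.148 at day 2 (adjusted p = 9.82e-10), 4.02 ± 0.145 at day 3 (adjusted p = 4.37e-12) and 3.89 ± 0.15 at day 4 (adjusted p = 8.76e-12). The steps from day 1 to 2 (1.40, adjusted p = 6.38e-06) and from day 2 to 3 (1.29, adjusted p = 2.27e-05) were close to the first in size. Gadd45a overlaps the long noncoding RNA E230016M11Rik, and since no strand-aware counting is stated, reads of the pair cannot be told apart.

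Gadd45g (ENSMUSG00000021453, chr13:51846678-51848468, plus strand) encodes another member of the same family. Its start-site window holds an octamer that runs into TTGCATCA, the composite element of ATF4 and C/EBP proteins. TTGCATCA occurs in 0.895% and the octamer in 1.74% of all windows. The sequence (chr13:51846425-51846674, plus strand) is shown with the joined letters in capitals, because the authors scored a footprint over them.
Gadd45g: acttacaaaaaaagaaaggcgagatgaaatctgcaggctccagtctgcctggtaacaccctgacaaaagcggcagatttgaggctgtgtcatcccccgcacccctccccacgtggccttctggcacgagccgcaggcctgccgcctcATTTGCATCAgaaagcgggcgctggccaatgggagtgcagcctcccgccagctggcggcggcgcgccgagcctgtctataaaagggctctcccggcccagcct
Gadd45g transcripts were at 8.12, 8.55 and 20.9 CPM at day 0, 15.5, 23.3 and 17.3 CPM at day 1 and 28.3 and 24.4 CPM at day 2. They were at 49.6, 56 and 60.3 CPM at day 3 and 72 and 69.7 CPM at day 4. Day 0 replicate 3 was as high as day 1, so that these days overlapped, and days 2, 3 and 4 each lay above the day before. The log2 change from day 0 was 0.57 ± 0.27 (SE) at day 1 (edgeR adjusted p = 0.193), 1.06 ± 0.294 at day 2 (adjusted p = 0.0118), 2.13 ± 0.274 at day 3 (adjusted p = 7.63e-06) and 2.49 ± 0.293 at day 4 (adjusted p = 3.08e-06, 5.62-fold). The step from day 2 to 3 (1.07, adjusted p = 0.0218) was lost without day 2 replicate 1 (0.0946), day 2 replicate 2 (0.165), day 3 replicate 2 (0.0535) or day 3 replicate 3 (0.0671). Without day 0 replicate 3 the day 1 change was 1.15 (adjusted p = 4.98e-04). The day 2 call was lost without day 0 replicate 1 (adjusted p = 0.0501), day 0 replicate 2 (0.0611) or day 2 replicate 1 (0.0864), and with only days 0 and 2 in the fit (0.0712).

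Gadd45b (ENSMUSG00000015312, chr10:80930073-80932204, plus strand), the family member best known as a target of NF-kB, departed from the other two. Its level was low throughout, at 1.24, 2.33 and 2.49 CPM at day 0 and 4.05, 5.97 and 8.51 CPM at day 1. It was at 4.02 and 3.17 CPM at day 2, 1.97, 2.14 and 3.47 CPM at day 3 and 4.56 and 5.02 CPM at day 4. Days 1, 2 and 4 lay above day 0, and day 3 overlapped it. The log2 change was 1.60 ± 0.395 (SE) at day 1 (edgeR adjusted p = 0.0151), 0.82 ± 0.432 at day 2 (adjusted p = 0.171), 0.31 ± 0.394 at day 3 (adjusted p = 0.567) and 1.23 ± 0.428 at day 4 (adjusted p = 0.0304). None of its steps between successive days passed the test, so the fall after day 1 is a description (-0.78 from day 1 to 2, adjusted p = 0.292). The day 1 call was lost without day 0 replicate 1 (adjusted p = 0.0518) or day 1 replicate 3 (0.0837), and the day 4 call without day 0 replicate 1 (0.0999), day 4 replicate 2 (0.0809) or day 4 replicate 3 (0.122). The day 4 call was also lost with sequencing components in the fit (log2 change 0.61, adjusted p = 0.491) and with only days 0 and 4 in it (0.0918).

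Gadd45b is an inducible gene of many cell types, and markers of microglia, the immune cells of the retina, moved with it by day. Summed microglial markers were at 135, 106 and 86.4 CPM at day 0 and 558, 133 and 191 CPM at day 1. They were at 282 and 254 CPM at day 2, 91.5, 78.2 and 75.3 CPM at day 3 and 201 and 321 CPM at day 4. On average days 1, 2 and 4 had more of these markers and more Gadd45b than days 0 and 3, whereas within day 1 the library with 558 CPM of markers had the lowest Gadd45b level of the 3. The part of these cells in the Gadd45b values was not tested.

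**Figure D2:**
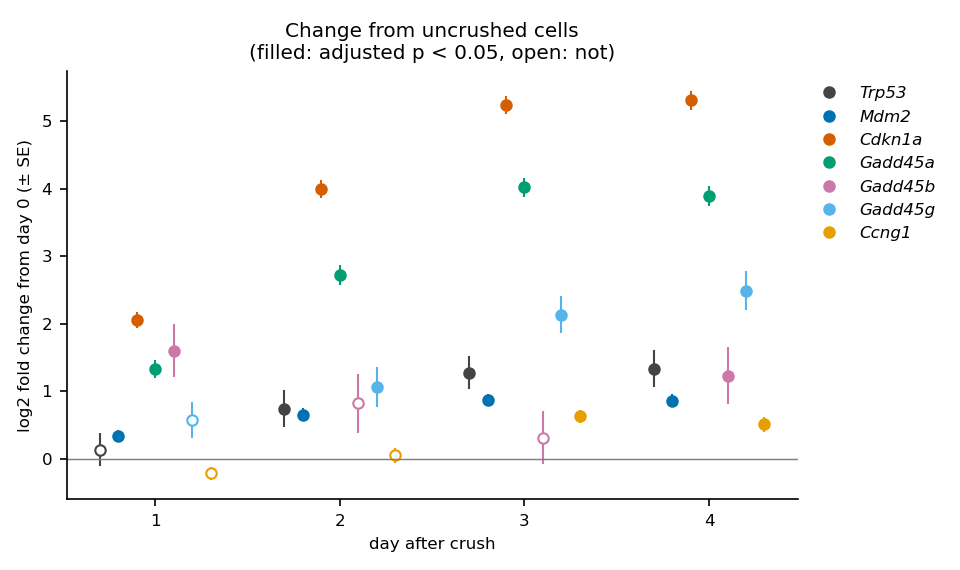
Log2 change from day 0 for the 7 genes at days 1 to 4, from edgeR; bars through the points are 1 SE, and filled points passed the adjusted p threshold of 0.05. Cdkn1a and Gadd45a rise to 5.31 and 4.02, the others reach at most 2.49, and Gadd45b is the only gene whose change at day 1 exceeds that at day 4.

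Across the 13 RNA libraries, the genes whose log2 CPM ran most like each member were listed from 10353 genes with a mean of at least 5 CPM, as a description with no test. Among the 7 members Cdkn1a and Gadd45a ran most like each other (r = 0.993); over all genes Plekho1 (0.995) and Klf6 (0.994) came before Gadd45a for Cdkn1a, and Ifrd1 (0.995) before and Syde1 (0.991) after Cdkn1a for Gadd45a. Mdm2 ran like Stk40 (0.983), Sdc2 (0.982) and Creb3 (0.981), and correlated at 0.974 with both Cdkn1a and Gadd45a. Nearest to Trp53 were Ddx27 (0.968), Pwp1 (0.966) and Arpc2 (0.954), and nearest to Ccng1 were Pkib (0.979), Dhx37 (0.974) and Hs3st5 (0.969). Gadd45g ran like Psmf1 (0.975), Dot1l (0.975) and Arc (0.968). Gadd45b stood apart, with r between -0.367 (Ccng1) and 0.286 (Mdm2) to the other members, and its nearest gene was Phactr1 (0.907). These values share the same 13 libraries and 5 days, so any gene with a steady rise scores high.

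The wider set of p53 target genes did not move as a block. Of 40 listed targets outside the 7 genes, 34 were tested: 5 were higher and 1 lower at day 1, 10 and 1 at day 2, 13 and 1 at day 3, and 14 and 4 at day 4, with median log2 changes of 0.16, 0.14, 0.19 and 0.46. The share called higher was above that of all genes on each day, a description of the list with no test. Sesn2, a stress sensor that restrains mTOR signalling, rose by 2.06, 3.24, 3.82 and 3.45 (log2) at days 1 to 4 (edgeR adjusted p = 8.78e-11 at day 3). Bbc3, which encodes the death protein PUMA, rose by 1.60, 1.95, 1.98 and 1.81 and was past the threshold on each day. Btg2, an antiproliferative gene, rose by 1.45, 1.70, 0.78 and 1.23, and Trp53inp1, a cofactor of p53, by 0.80, 0.83, 0.88 and 1.14. Apaf1, the core of the apoptosome, rose from day 2, by 1.04, 1.23 and 1.46.

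Phlda3, Rrm2b, Polk, Xpc, Perp and Steap3 were also higher at day 3, by 1.70, 0.49, 0.75, 0.76, 2.05 and 2.00. They complete, with Pmaip1 and Zmat3, the 13 targets called higher that day, beside 1 called lower. Some of the remaining targets passed on no day, and some targets were lower on some day. Bax, the pore-forming death protein, had log2 changes of -0.45, -0.24, 0.21 and 0.07 at days 1 to 4 (edgeR adjusted p = 0.317, 0.591, 0.565 and 0.871). Zmat3, an RNA-binding target, was lower at day 1 (-0.29, adjusted p = 0.0245) and higher at day 3 (0.23, adjusted p = 0.0256) and day 4 (0.34, adjusted p = 0.00543). Sesn1 was lower at day 4 (-0.53, adjusted p = 0.0368), as was the survival gene Bcl2l2 (-0.56, adjusted p = 1.53e-04). Bax, Zmat3, Sesn1 and Bcl2l2 were picked out after their values were seen.

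**Figure D3:**
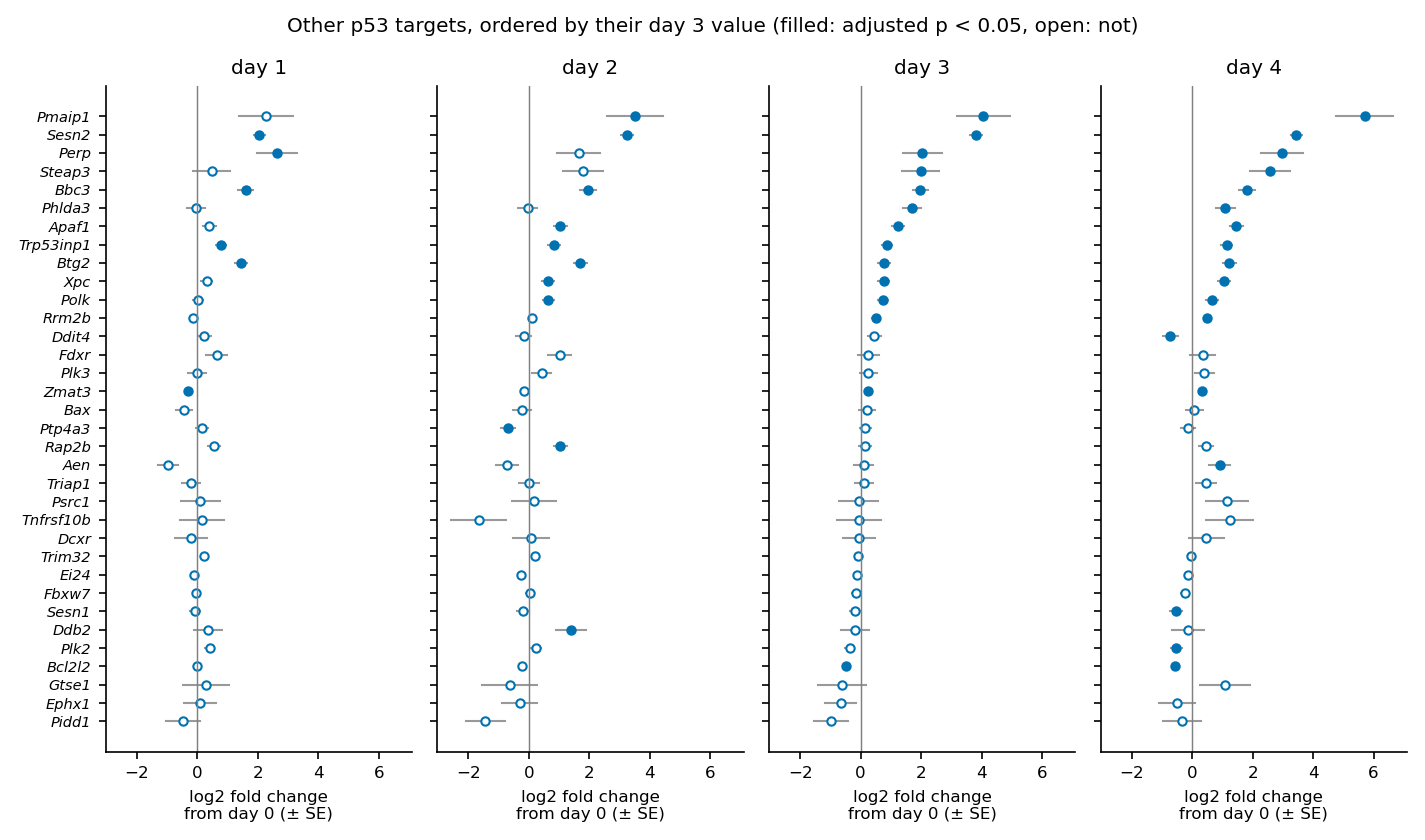
Log2 change from day 0 (horizontal axis, 1 panel a day) of the 34 tested p53 targets outside the 7 genes, in order of their day 3 value, from edgeR; lines are 1 SE and filled points passed the adjusted p threshold of 0.05. Pmaip1 and Sesn2 lead at day 3, at 4.07 and 3.82, with Pmaip1 at a day 0 mean of only 0.217 CPM. Genes in the lower part of the order are mostly open circles. Some lie far from 0, such as Tnfrsf10b at day 2 (-1.66), and some are filled, such as Bcl2l2 at day 4 (-0.56).

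Regulators of p53 went in both directions. Of 29 listed, 24 were tested. Against the shares of all genes given above (5.93%, 14.8%, 20.4% and 19.8% higher and 5.45%, 14.5%, 20.1% and 19.0% lower at days 1 to 4), the list had 1 higher and 2 lower at day 1, 6 and 2 at day 2, 10 and 3 at day 3, and 7 and 3 at day 4 (medians -0.06, 0.18, 0.13 and 0.17). Mdm4, the partner of MDM2 in holding p53 down, rose at day 2 (0.45), day 3 (0.23) and day 4 (0.64, adjusted p = 6.05e-05). Rchy1, another ubiquitin ligase for p53, rose by 1.09, 1.34 and 1.22 at days 2 to 4, and the deacetylase Sirt1 by 1.01, 0.82 and 1.43. Prkdc, the catalytic subunit of a DNA damage kinase, was lower at day 2 (-0.75, adjusted p = 2.9e-04) and day 3 (-0.47, adjusted p = 0.00299). The methyltransferase Setd7 rose by 0.39, 0.74 and 0.73 at days 1, 3 and 4.

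Among the partners of p21, 15 of 20 listed cyclins, CDKs and related genes were tested, with 3 higher and 1 lower at day 1 and 4 and 1 at days 3 and 4 (4 and 2 at day 2, medians 0.21, 0.38, 0.36 and 0.53). The same shares of all genes apply here and to the lists that follow. Of the D-type cyclins, Ccnd2 rose by 1.82, 2.80, 4.20 and 4.23, and Ccnd1 by 0.93, 0.95, 0.86 and 1.48 at days 1 to 4, while Ccnd3 had changes of 0.12, -0.46, -0.73 and -0.85 and passed on no day. Mki67, a marker of dividing cells, was among the genes higher at day 1 (2.52, adjusted p = 0.0458) and day 2 (3.13, adjusted p = 0.00927), and had -0.61 at day 3. Day means of Mki67 were 1.13, 6.51, 9.87, 0.737 and 1.86 CPM at days 0 to 4. The summed microglial markers were at 86.4 to 135 CPM at day 0, 133 to 558 CPM at day 1 and 254 to 282 CPM at day 2. They were at 75.3 to 91.5 CPM at day 3 and 201 to 321 CPM at day 4. At day 4 these markers thus lay above all of day 0, while Mki67 was near its day 0 mean. The part of microglia or dividing cells in the cyclin counts was not tested. Ccnd3 and Mki67 were picked out after their values were seen. Cdk4, a kinase of the D-type cyclins, rose at day 3 (0.76) and day 4 (0.77). Ccne1, the cyclin that drives entry into S phase, fell on each day (-1.11, -1.73, -1.56 and -1.26). Pcna, the replication clamp bound by p21, rose at day 3 (0.44) and day 4 (0.53). Of 7 other CDK inhibitors, 5 were tested, with 0, 1, 2 and 1 higher and 0, 1, 1 and 1 lower at days 1 to 4 (medians 0.41, 0.46, 0.52 and 0.44). Cdkn2c rose at days 2 to 4 from a very low level (2.37, 2.61 and 3.37), Cdkn1b at day 3 (0.52), Cdkn2d fell at days 2 to 4 (-0.93, -0.81 and -0.83), and Cdkn1c (-0.50 to -1.35) and Cdkn3 (0.88 to 1.92) passed on no day.

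Kinases through which GADD45 proteins act, the p38 and JNK cascades, had more members called lower than higher. Of 12 listed, 11 were tested, with 0 higher and 2 lower at day 1 and 1 higher and 5 lower at each of days 2, 3 and 4 (medians 0.09, -0.38, -0.24 and -0.25). Map2k3, an activator of p38, was the gene that rose, by 1.68, 1.91 and 1.83 at days 2 to 4. Map2k6, the other main p38 activator, fell by 1.14, 1.96 and 2.38, and Mapk10, the neuronal JNK, fell on all 4 days (-0.27, -0.76, -1.14 and -1.50). Map2k4 (-0.39, -0.46 and -0.41) and Mapk9 (-0.60, -0.63 and -0.66) fell at days 2 to 4. The kinase that GADD45 proteins bind directly, Map3k4, had changes of 0.18, 0.12, -0.29 and -0.25 and passed on no day, and was picked out for that binding. RGC markers fell too in the median, by -0.34, -0.66, -1.07 and -1.30 over the 12 listed. Of these, 7, 9, 8 and 9 were called lower at days 1 to 4 and 0, 0, 1 and 2 higher. The part of RGC markers in the kinase changes was not tested.

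At day 3 the shares of the members' peaks called higher and lower were near those of all peaks. Most of the peaks called higher were annotated to Gadd45g. For a distal peak the gene ID is an annotation and not a measured link. With edgeR on all 151630 peaks and the batch as a term, 1 of 34 peaks was higher and 3 lower at day 1 than at day 0, against 5.44% and 2.40% of all peaks. At day 3, 7 were higher and 3 lower (16.4% and 7.39% of all peaks), and from day 1 to 3, 2 were higher and 0 lower (0.987% and 0.193%). Median log2 changes over the 34 peaks were 0.00, 0.04 and 0.23, against 0.06, 0.03 and 0.01 over all peaks. Of the 7 peaks higher at day 3, 5 were annotated to Gadd45g, 1 to Ccng1 and 1 to Mdm2.

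Ccng1 has the peak that opened most (chr11:40789865-40791053, intergenic, at -34554 bases from the start site). In batch 2 it held 0.849, 0.925 and 1.37 CPM at day 0, 1.78, 2.34 and 2.78 CPM at day 1 and 4.67, 5.68 and 7.32 CPM at day 3. In batch 1 it held 1.6, 2.44 and 3.46 CPM at day 0 and 4.61, 6.97 and 7.19 CPM at day 3. All 6 libraries of day 3 lay above all 6 of day 0. The log2 change at day 3 was 1.90 ± 0.224 (SE), 3.74-fold (edgeR adjusted p = 2.59e-06), with 2.43 in batch 2 alone (adjusted p = 1.95e-07) and 1.34 in batch 1 alone (adjusted p = 9.04e-05). A nearer intergenic peak of the same gene (chr11:40786609-40787579) was lower at day 3 (-0.69, adjusted p = 0.00566, but -0.39 and adjusted p = 0.396 in batch 1 alone), and the start-site peak that holds the p53 element was not called (-0.42 at day 1, adjusted p = 0.0806, and -0.19 at day 3, adjusted p = 0.241).

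Gadd45g stood in a stretch with 11 peaks, and 5 of the 7 downstream of its start-site peak were higher at day 3, with 1 lower (-0.57, adjusted p = 0.0133) and 1 not called (0.40, adjusted p = 0.224). The peak at chr13:51852941-51854079, 6197 bases past the start site, held 2.42, 2.93 and 3.51 CPM in the day 0 libraries of batch 2 and 1.51, 1.77 and 2.27 CPM in those of batch 1. At day 3 it held 4.35, 5.34 and 7.56 CPM in batch 2 and 3.75, 4.11 and 4.34 CPM in batch 1. The days did not overlap, and the log2 change was 1.05 ± 0.164 (SE; edgeR adjusted p = 7.32e-05), with 0.89 in batch 2 (adjusted p = 0.00294) and 1.14 in batch 1 (adjusted p = 4.95e-04). A pair of peaks 52683 and 55127 bases downstream, at chr13:51899427-51900120 and chr13:51901871-51903934, rose by 0.90 (adjusted p = 0.00146) and 0.74 (adjusted p = 0.00139). Their change was carried by batch 2 (1.39 and 1.05), and in batch 1 alone it was 0.35 for each (adjusted p = 0.473 and 0.316). The peak over the start site of Gadd45g, with the octamer and TTGCATCA, had changes of -0.39 at day 1 (adjusted p = 0.068) and -0.02 at day 3 (adjusted p = 0.938).

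**Figure D4:**
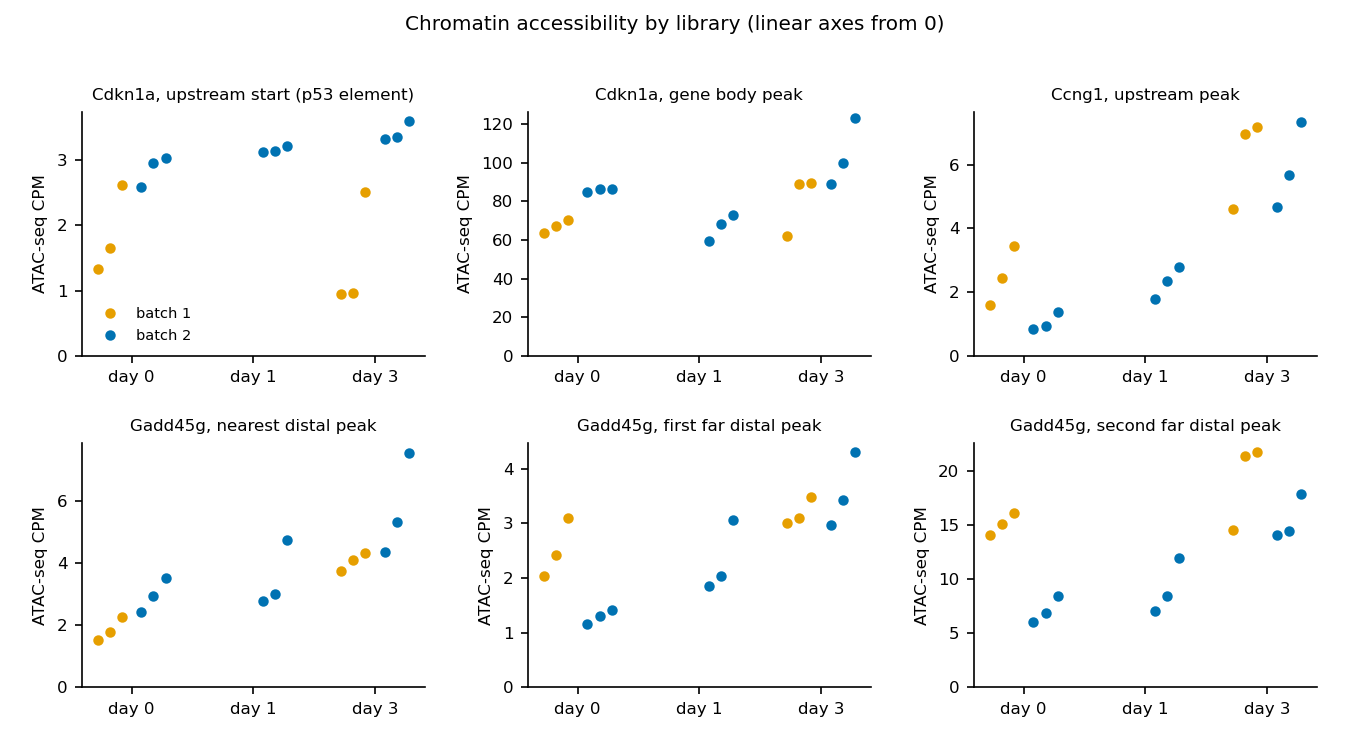
Peak level in every ATAC library, in CPM, by day after crush, for 6 peaks of Cdkn1a, Ccng1 and Gadd45g on linear axes from 0; points are libraries and colours give the 2 batches. The Ccng1 peak upstream and the Gadd45g peak downstream separate day 3 from day 0, while the Cdkn1a peak with the p53 element differs more between batches than between days.

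Cdkn1a had the largest log2 rise in RNA of the 7 genes, and none of its 3 peaks was called at day 1 or 3 against day 0, although its gene-body peak passed at day 3 under some other settings. The peak with the p53 element (chr17:29090547-29091857) held 2.58, 2.95 and 3.03 CPM at day 0, 3.13, 3.14 and 3.21 CPM at day 1 and 3.32, 3.35 and 3.6 CPM at day 3 in batch 2. In batch 1 it held 1.33, 1.66 and 2.62 CPM at day 0 and 0.943, 0.967 and 2.51 CPM at day 3. The days differ by less than the batches do, and the fitted log2 change was 0.02 ± 0.261 (SE) at day 1 (edgeR adjusted p = 0.974) and -0.01 ± 0.206 at day 3 (adjusted p = 0.979).

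The second Cdkn1a peak of note is 8334 bases wide (chr17:29092779-29101112) and covers the main start site and the gene body. Its level in batch 2 was 86.3, 86.4 and 84.9 CPM at day 0, 68.4, 59.3 and 73.2 CPM at day 1 and 123, 89.1 and 100 CPM at day 3. In batch 1 it was 70.2, 67.3 and 63.5 CPM at day 0 and 61.9, 89.1 and 89.7 CPM at day 3. Within batch 2 the 3 days did not overlap, with day 1 lowest and day 3 highest, and in batch 1 one day 3 library lay below day 0. The change was -0.36 at day 1 (adjusted p = 0.0976), 0.27 at day 3 (adjusted p = 0.0694) and 0.63 ± 0.142 from day 1 to 3 (adjusted p = 0.0352). That last call was lost without day 1 replicate 1 (adjusted p = 0.121), day 1 replicate 2 (0.302) or day 3 replicate 1 (0.0632), without the batch term (0.46, adjusted p = 0.325) and with a replicate block (0.0517). The day 3 change passed with lowess scaling (0.45, adjusted p = 3.65e-06), with the in-peak read share as a covariate (0.40, adjusted p = 0.00858), and without day 3 replicate 2 (0.31, adjusted p = 0.0482) or day 3 replicate 4 (0.34, adjusted p = 0.00696), and the authors' deposited table gives 0.31 (adjusted p = 0.0209). The day 1 change passed in batch 2 alone (-0.41, adjusted p = 0.0197) and with DESeq2 (-0.42, adjusted p = 0.0403).

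Peaks over the start sites of 3 members were lower at day 1, as were 2.40% of all peaks. Each call was kept with DESeq2 size factors and lost with a lowess scaling. The peaks over the start sites of Trp53 and Gadd45a are annotated to the neighbouring genes Wrap53 and E230016M11Rik, and were added after the data had been seen. They are not among the 34 peaks. Besides the Mdm2 start-site peak, those lower at day 1 among the 34 were a Trp53 peak (chr11:69590714-69593364, -0.63, edgeR adjusted p = 0.0414) and an intergenic Mdm2 peak (chr10:117716907-117722059, -0.55, adjusted p = 0.0421). That intergenic peak was higher from day 1 to 3 (0.80, adjusted p = 0.0259). For Mdm2 the start-site peak (chr10:117708608-117713267) held 61 to 69.1 CPM at day 0 (6 libraries, mean 65), 50.3, 46.7 and 49.7 CPM at day 1, and 40.9 to 74.1 CPM at day 3. Day 1 lay below all of day 0, and the change was -0.47 (edgeR adjusted p = 0.048). For Trp53 it was -0.54 (adjusted p = 0.0335) and for Gadd45a -0.53 (adjusted p = 0.0368). Each call was lost without any 1 of the day 1 libraries or of day 0 replicates 1 to 3, and that of Mdm2 also without day 0 replicate 4 or 5 (adjusted p 0.0528 to 0.15 for Mdm2, 0.0609 to 0.128 for Trp53 and 0.0634 to 0.129 for Gadd45a). With a lowess scaling by mean level the changes of Mdm2, Trp53 and Gadd45a became -0.08, -0.11 and -0.10 (adjusted p = 0.441, 0.445 and 0.353), and the authors' deposited table gives 0.10 for Mdm2, 0.00 for Trp53 and 0.05 for Gadd45a. The low share of reads in peaks at day 1 moved with these values. With the in-peak read share as a covariate, the 3 changes in that order were -0.21, -0.19 and -0.25. None was then called (adjusted p = 0.591, 0.597 and 0.525). All 3 calls were also lost without the batch term (adjusted p = 0.18, 0.175 and 0.133). A replicate block lost those of Mdm2 (0.0611) and Gadd45a (0.0507). In batch 2 alone all 3 were kept (0.0065, 0.00239 and 0.00293). Whether the low share caused the changes was not tested.

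The p53 motifs lost score after crush along with most motifs, a fall that not all of them kept once the shift common to all motifs was subtracted. The authors' chromVAR z-scores measure whether peaks with a motif are more open in a library than peaks of like composition. For the mouse p53 motif of HOCOMOCO, z ran from -1.07 to 5.99 (median 4.21) in the 6 libraries of day 0, from -7.55 to -3 (median -4.37) in the 3 of day 1, and from -3.73 to -0.46 (median -1.79) in the 6 of day 3. Day 1 lay below all of day 0, and day 3 overlapped both. With limma over 1312 motifs the change was -9.69 ± 1.34 (SE) at day 1 (adjusted p = 1.55e-05), -5.34 at day 3, and 4.36 from day 1 to 3 (adjusted p = 0.0101).

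All 4 p53 motifs were called lower at day 1, as were 75.7% of all motifs, while 8.00% were higher. At day 3, 3 of 4 were lower (58.2% of all lower, 25.9% higher), and from day 1 to 3, 2 of 4 were higher (70.3% higher, 4.27% lower). The median of all motifs moved by -8.39, -3.85 and 6.09 in the same comparisons. After each library's median was subtracted, the day 1 changes of P53_MOUSE, MA0106.1, MA0106.2 and MA0106.3 were -0.53, 3.91, -1.22 and 1.40 (adjusted p = 0.683, 0.00509, 0.339 and 0.389), so that MA0106.1 and MA0106.3 changed sign. The day 3 changes were -1.91, 2.20, -3.87 and -2.34 (adjusted p = 0.0459, 0.0199, 7.82e-04 and 0.0568), with the MA0106.1 version again opposite to the others. Different versions of the p53 motif therefore gave different directions once the common shift was removed.

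**Figure D5:**
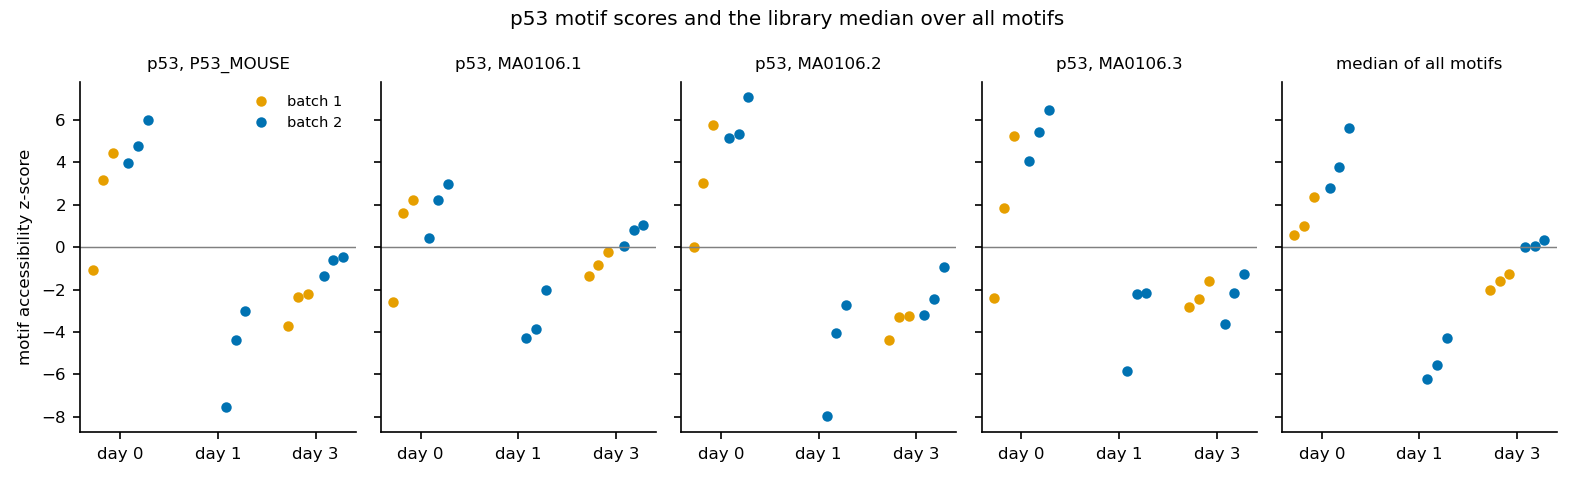
Deposited chromVAR z-scores of the 4 p53 motifs in every ATAC library (first 4 panels) and each library's median over all 1312 motifs (last panel), by day after crush; points are libraries and colours give the 2 batches. The median over all motifs is lowest at day 1, as are the uncentred means of the p53 motifs.

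Footprints scored by the authors for the stress factors ATF3, ATF4, CEBPG and DDIT3 were read at the same peaks. The score is a depth of protection over a motif in libraries pooled by day, so it has no replicate. The 33 sites are annotated to the 7 genes or lie in the peaks described above, and several are the same bases scored for more than one factor. All sites counted for Gadd45a lie in its start-site peak, which is annotated to E230016M11Rik. Of the 33, 15 were called bound by the authors at day 0, 27 at day 1 and 26 at day 3. By factor, ATF3 had 14 sites with 7, 12 and 13 bound, ATF4 6 sites with 3, 5 and 4, CEBPG 8 sites with 3, 6 and 6, and DDIT3 5 sites with 2, 4 and 3. Over the whole genome the bound share of ATF3 sites was 32.6%, 72.7% and 81.5% on the same days, that of ATF4 sites 25.8%, 69.3% and 77.4%, that of CEBPG sites 27.7%, 70.9% and 78.4%, and that of DDIT3 sites 25.1%, 70% and 77.8%.

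The site over TTGCATCA at the Gadd45g start (chr13:51846571-51846584) was bound on all 3 days, with scores of 2.4, 2.66 and 2.66. At the Ccng1 peak that opened, an ATF3 site had scores of 0.0253, 0.0686 and 0.282 and another of 0.0117, 0.148 and 0.065. Of 4 ATF3 sites in the gene-body peak of Cdkn1a, the one nearest the start had scores of 0.329, 0.362 and 0.636. Its ratio of day 3 to day 0 was 1.93, against a median ratio of 1.67 over all ATF3 sites. The Cdkn1a site with the highest scores had 0.596, 0.857 and 0.657. The first Ccng1 site and the first Cdkn1a site were highest at day 3. The other Ccng1 site and the Cdkn1a site with the highest scores peaked at day 1, and the Gadd45g start site was bound before crush.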

How the data were processed

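The gene counts, peak counts, chromVAR z-scores, footprint scores and fractions of reads in peaks are as the authors deposited them. Per the submitters' processing notes, RNA reads were handled with STAR, Picard and HTSeq on mm10, and ATAC reads with Trim Galore, Bowtie2, MACS2 and featureCounts on GRCm38; their versions were not given in any source used here. The authors' deposited log2 fold changes, p-values and correlations were read only where named. The members and lists were chosen with earlier results of these data known.

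RNA counts of 13 libraries were fitted by day with edgeR 4.0.16 (R 4.3.3; TMM, filterByExpr, quasi-likelihood F test). Peak counts of 15 libraries were fitted by day and batch, and z-scores by day and batch with limma 3.58.1. P-values were Benjamini-Hochberg adjusted over all genes, peaks or motifs, with a threshold of 0.05. CPM are TMM-normalised; levels are not compared between genes. The authors' counts set the depth; their SMART-Seq v4 kit does not keep strand. Named genes are the 7 members, the 5 lowest adjusted p of each list, and the genes a count turns on. Added outside that rule were Bax, Pmaip1, Zmat3, Sesn1, Bcl2l2, Phlda3, Rrm2b, Polk, Xpc, Perp, Steap3, Ccnd3, Mki67 and Map3k4. Named peaks are the start-site peak and up to 3 with the smallest adjusted p. Day 2 replicate 3 and day 4 replicate 1 of the RNA samples were not analysed here, and 18 per-sample columns that matched no sample were not used. Alternatives included DESeq2 1.42.0, other scalings and filters, and leaving out each library; models were tested on simulated data. Promoter windows are from RefSeq (GRCm38.p6).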

Additional observations from a re-analysis of the deposited data

How the results depend on the processing

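Among the RNA results, Cdkn1a and Gadd45a were called on each of days 1 to 4 under every alternative fit run, and so were Trp53, Mdm2, Gadd45g and Ccng1 at days 3 and 4. With only the compared groups in the fit, the number of called genes at day 1 fell from 1563 to 815 and that from day 3 to 4 rose from 239 to 656, where DESeq2 called 623. With the first 2 sequencing components in the fit, the count from day 1 to 2 fell from 1779 to 626. Leaving out 1 library at a time gave 1024 to 1563 genes at day 1, 2427 to 3958 at day 2, 4816 to 5329 at day 3, 4098 to 5261 at day 4, 682 to 1434 from day 1 to 2, 996 to 2034 from day 2 to 3 and 1 to 106 from day 3 to 4. Deviations from the group mean correlated at -0.126 to 0.068 (mean 0.011) between RNA libraries of the same replicate number, and at -0.085 to 0.086 (mean -0.006) between the others. For ATAC the values were -0.207 to 0.223 (mean 0.054) and -0.279 to 0.319 (mean -0.008). With so few libraries a group, these values cannot exclude a pairing. With a replicate block the RNA counts were 1534, 3820, 5458 and 5173 at days 1 to 4 and no member's call changed. Leaving out 1 library at a time gave 4 to 6, 7 to 9, 11 to 12 and 11 to 15 p53 targets called higher at days 1 to 4, and 1 to 2, 3 to 5, 5 to 9 and 5 to 7 p53 regulators.

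ATAC counts of called peaks depended far more on the setting; the cause was not tested. From 11884 at day 1 the count went to 0 without the batch term, 40817 in batch 2 alone, 2752 with lowess scaling, 20450 with DESeq2, 6212 with a replicate block and 895 with the in-peak read share as a covariate. From 36123 at day 3 it went to 14466 without the batch term, 7162 in batch 1 alone and 21294 with the in-peak read share. From 1789 between days 1 and 3 it went to 0 without the batch term, 15532 in batch 2 alone, 6424 with DESeq2, 1090 with a replicate block and 7961 with the in-peak read share. Leaving out 1 library gave 419 to 16473, 28395 to 41011 and 0 to 4452 peaks in the 3 comparisons. At day 3 the start-site peaks of Gadd45b and Gadd45g changed sign under lowess scaling (0.188 and 0.190).

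Motif scores turned with the centring, as its construction (each library's median set to 0) allows. Centred, the day 1 changes of P63_MOUSE, P73_MOUSE, MA0106.1, MA0106.3 and MA0525.2 were 1.71, 0.91, 3.91, 1.40 and 2.97, and the day 3 changes of P63_MOUSE, P73_MOUSE, MA0106.1 and MA0525.2 were 0.94, 0.13, 2.20 and 0.72. From day 1 to 3, P63_MOUSE, P73_MOUSE, P53_MOUSE, MA0106.1, MA0106.3, MA0525.2 and MA0861.1 had -0.78, -0.78, -1.38, -1.71, -3.73, -2.25 and -2.25. With the in-peak read share as a covariate as well, the day 1 changes of P63_MOUSE, MA0106.1, MA0106.3 and MA0525.2 were 0.61, 3.34, 3.11 and 2.34, the day 3 changes of P63_MOUSE and MA0525.2 were 0.36 and 0.39, and the 7 changes from day 1 to 3, in the order above, were -0.25, -0.24, -1.20, -1.44, -4.55, -1.95 and -2.72. Called motifs from day 1 to 3 went from 978 to 649 centred and 629 with both, and at day 1 from 1098 to 592 with both. Without 1 library the motif counts were 962 to 1142, 1068 to 1116 and 853 to 968.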

Other observations

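The authors also deposited correlations between each gene's RNA and the peaks near it. For the 7 genes, 19 of 127 pairs with distal peaks had a deposited p under 0.05, against 9.29% of all 169469 distal pairs, and 0 of 3 promoter pairs did, against 15.4% of all 6882 promoter pairs. Cdkn1a held 7 of those 19 pairs (of 23), with the highest correlation at 0.945, Gadd45g 6 of 40, Trp53 2 of 11, Gadd45a 2 of 10, Mdm2 1 of 23, Ccng1 1 of 4 and Gadd45b 0 of 16. The Ccng1 pair is the upstream peak that opened most (correlation 0.714, p = 0.046, in the authors' deposited table). The peak of Cdkn1a with the p53 element had a deposited correlation of 0.539 (p = 0.102). The days are shared by both assays, so any gene and peak that change steadily correlate.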
